A study of Chlorocebus aethiops with 12 samples.

Results

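The interaction of dexamethasone (Dex) with MDFIC was measured in COS-1 cells with a glucocorticoid receptor (GR) that cannot be phosphorylated at the serine replaced in the S211A mutant. It is the Dex response with MDFIC minus the Dex response without it, and it draws on all 12 arrays of the series, in 4 groups of 3 assigned by their titles. COS-1 is an established line from African green monkey kidney, widely used for transient expression. All 4 groups were transfected, with FuGENE6, with the GR phosphorylation mutant S211A. The groups named S211A received that receptor alone, and those named S211A+MDFIC received MDFIC as well. Each was given vehicle or 100 nM Dex for 6 h, in medium with charcoal-stripped serum. The receptor is thus shared by the controls, and no group with the wild-type receptor or without a transfected receptor was analysed here. Transfected and untransfected cells of a culture were measured together, so that fewer responding cells and a smaller response per cell cannot be told apart. The 3 arrays of a group are biological replicates according to the labels.

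GR is a steroid receptor that waits in the cytoplasm in a complex with chaperones. When it binds a glucocorticoid it moves to the nucleus, binds DNA and raises or lowers the transcription of its target genes. The serine concerned lies in the amino-terminal part of the receptor and becomes phosphorylated after hormone binding. The mutant has alanine there. Dex is a synthetic glucocorticoid, and MDFIC is a protein of the MyoD family inhibitor group, whose members bind transcription factors. By its title, the series asks whether the effect of MDFIC on the GR transcriptome needs phosphorylation of this serine, and the interaction is a measure of such an effect in cells whose receptor lacks it.

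The arrays carry human probes, so that monkey RNA was read on human sequences. Levels are given as log2 signal relative to each array's 75th percentile, and the difference between the Dex responses as a log2 difference, S211A+MDFIC minus S211A. The files pair a probe with an accession and not with a gene name. Accessions therefore stand for genes, the functions of the encoded proteins are not described, and only 2 accessions in each direction are named. The level of transfected MDFIC could not be read by name. The accession with the largest MDFIC difference lay at -2.98 ± 0.05 under vehicle and -3.14 ± 0.09 under Dex without MDFIC, and at 5.72 ± 0.10 and 5.67 ± 0.45 with it (SD, n = 3). The 6 arrays labelled S211A+MDFIC were thus set apart from the other 6 at this accession. It was chosen for that difference, so this is no test of the labels.

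The 12 arrays lay on 3 slides of 4. All 3 S211A vehicle arrays and the first S211A Dex replicate were on slide 1. On slide 2 were S211A Dex replicates 2 and 3 with S211A+MDFIC vehicle replicates 1 and 2, and on slide 3 the other 4 arrays. Fewer spots were well above background on slide 1, at 68.8% to 72.6%, than on slide 2 (77.0% to 80.5%) or slide 3 (77.3% to 81.3%). Within groups the correlation between arrays over accessions was 0.986 to 0.996. The median absolute deviation from the group mean was 0.12 on S211A+MDFIC Dex replicate 2 and 0.05 to 0.09 on the other 11 arrays. The root mean square deviation, which gives large deviations more weight, was 0.31 on S211A Dex replicate 1, 0.29 on S211A Dex replicate 2 and 0.25 on S211A+MDFIC Dex replicate 2. limma's array weights were lowest for this array, at 0.30, and next lowest for S211A Dex replicate 1, at 0.47. The number of arrays limits the precision.

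Few accessions had a Dex response that differed detectably with MDFIC, and nearly all of these differed in the same direction. Of the 24587 accessions, 67 (0.273%) had a Dex response that differed between the cell backgrounds at a limma adjusted p under 0.05. In 65 of them (0.264%) the difference was above 0, and in 2 (0.00813%) it was below 0. At an unadjusted p under 0.05 there were 2419 accessions, or 9.84%. Over all accessions the median difference was 0.00, and 90% of the differences lay between -0.48 and 0.51. The median half-width of the unadjusted 95% interval was 0.31 with 3 arrays per group. A call at an adjusted p under 0.05 needs a larger difference at such an accession. The smallest difference among the 65 above 0 was 0.57. The precision fell with the signal. From the brightest to the dimmest of 4 equal parts of the accessions, the median half-width was 0.21, 0.25, 0.37 and 0.87. Of the 67 calls, 51 were in the brightest part, 14 in the next, and 1 in each of the dimmer parts.

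**Figure D1:**
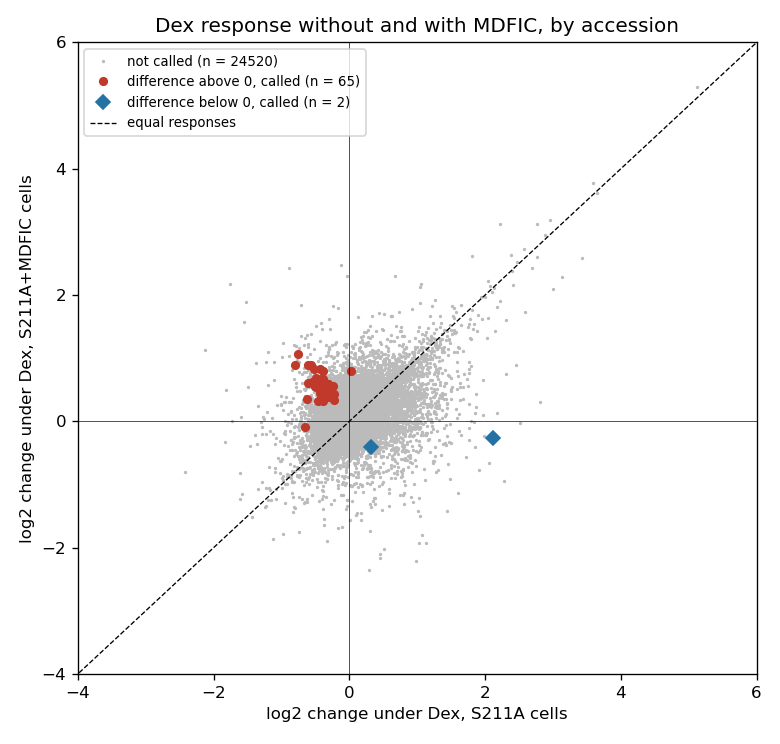
Each point is an accession, with its log2 change under Dex in S211A cells on the x axis and in S211A+MDFIC cells on the y axis (means of 3 arrays). Grey points were not called for the difference, the 65 red circles were called with a difference above 0 and the 2 blue diamonds with one below 0. The dashed line marks equal responses. Most red points lie left of 0 and above 0, which is a lower signal under Dex in S211A cells and a higher one in S211A+MDFIC cells.

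The count depends on single arrays. Without S211A+MDFIC Dex replicate 2, 256 accessions passed, 169 above 0 and 87 below, and all 67 were among them. Without S211A Dex replicate 1, 0 passed in limma, with 2506 at an unadjusted p under 0.05. Over the 12 fits that each left out 1 array the count ran from 0 to 256, and in 9 of them none of the 67 passed. The sizes moved less than the calls: over these fits the difference was 1.67 to 1.93 at NM_013271 and 1.55 to 1.84 at BC033110, both among the 65. Without S211A Dex replicate 1 their limma adjusted p was 0.0516 and 0.0524.

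Over all accessions Dex was called to raise 1070 (4.35%) and to lower 517 (2.1%) without MDFIC, and to raise 1450 (5.9%) and lower 991 (4.03%) with it. MDFIC was called to raise 112 (0.456%) and lower 131 (0.533%) under vehicle, and 63 (0.256%) and 44 (0.179%) under Dex. These contrasts share arrays with each other.

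Nearly all of the 65 accessions with a difference above 0 had a shape in common. The Dex change was below 0 without MDFIC at 64 of them and above 0 with MDFIC at 64, so that the signal was high in S211A vehicle and in S211A+MDFIC Dex cells and low in the other groups. The median Dex change was -0.37 without MDFIC and 0.51 with it. Among the 65, 41 were called as falls under Dex in S211A cells, where 2.1% of all accessions were, and 63 as rises in S211A+MDFIC cells, where 5.9% of all accessions were. Both calls were made at 39 accessions. Read the other way, the median MDFIC change was -0.41 under vehicle, with 15 called lower against 0.533% of all accessions, and 0.49 under Dex, with 25 called higher against 0.256%. These changes make up the difference by which the 65 were chosen, so they describe the 65 and test nothing.

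Array by array, the median of the 65, relative to each accession's mean, was 0.24, 0.04 and 0.23 on the S211A vehicle arrays. It was -0.16, -0.19 and -0.26 on the S211A Dex arrays. On the S211A+MDFIC vehicle arrays it was -0.25, -0.32 and -0.15, and on the S211A+MDFIC Dex arrays 0.38, 0.20 and 0.28. The 6 arrays with a median above 0 were those of S211A vehicle and S211A+MDFIC Dex. Within groups the 65 also moved as a body, since S211A vehicle replicate 2 was the lowest of its group for 63 of them, S211A+MDFIC vehicle replicate 2 for 52 and S211A+MDFIC Dex replicate 2 for 52. At 64 of the 65 all S211A Dex arrays lay below all S211A vehicle arrays, and at 64 all S211A+MDFIC vehicle arrays lay below all S211A+MDFIC Dex arrays. Over all accessions these orders were met by 10.9% and 17.3%, and nothing is read from the counts because the choice of the 65 favours them.

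Slide moves with this shape. The 4 arrays of slide 2 belong to the low groups, and the 6 high arrays are on slides 1 and 3. Over the 65, the S211A Dex arrays of slide 2 lay below the one on slide 1 (median difference -0.08), and the S211A+MDFIC vehicle arrays of slide 2 lay below the one on slide 3 (median difference -0.16). Over all accessions these differences were 0.03 and 0.00. Within slide 1 the S211A Dex array lay below the S211A vehicle arrays (median difference -0.34), and within slide 3 the S211A+MDFIC Dex arrays lay above the vehicle array (median difference 0.42), so that the 65 had the same shape within slides. Each of these values rests on a single array on one side, and the arrays are those by which the 65 were chosen.

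The 65 also differed from the accessions tested in signal level and type of identifier. Bright accessions were measured more precisely, and the part of precision in their share of the calls was not tested. Identifiers were not compared at equal brightness. Of the 65, 51 (78.5%) belonged to the brightest of the 4 parts, and their median level was 3.00 against -1.63 for all accessions. Their signal was well above background on every array at all 65, as at 85.3% of the accessions tested. Identifiers with no name beyond that of the probe made up 18 of the 65 (27.7%) against 11.4% of those tested, and identifiers of the NM_ type, RefSeq's curated messenger RNAs, 32 (49.2%) against 66.9%.

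**Figure D2:**
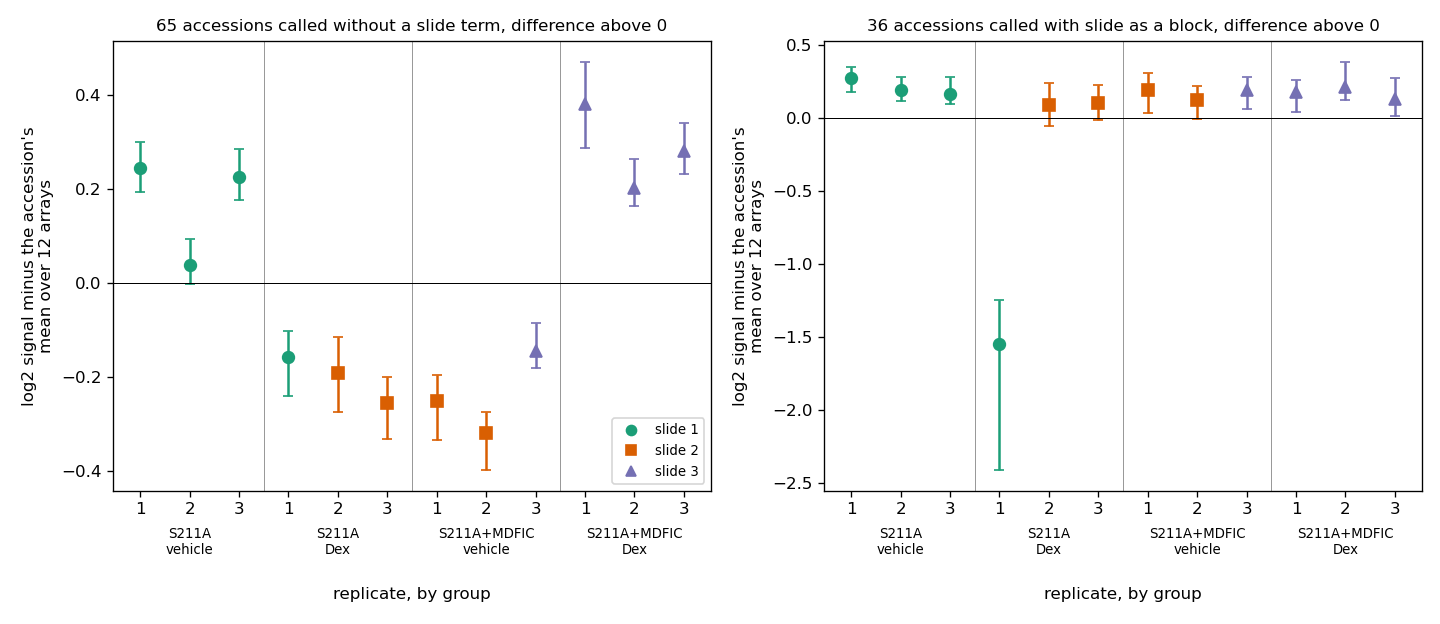
The y axis gives log2 signal minus the accession's mean over the 12 arrays, and the x axis the arrays by group and replicate. Symbols are medians over accessions, bars run from the 25th to the 75th percentile, and colour and shape mark the slide. On the left, the 65 accessions called without a slide term are above 0 on the S211A vehicle and S211A+MDFIC Dex arrays. On the right, the 36 accessions called with slide as a block stand at -1.54 on S211A Dex replicate 1 and between 0.09 and 0.27 on the other 11 arrays.

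NM_013271 was high in S211A vehicle and S211A+MDFIC Dex cells and low in the other groups. Its level was 1.19, 0.76 and 1.04 on the S211A vehicle arrays and 0.44, 0.17 and 0.12 on the S211A Dex arrays. With MDFIC it was 0.16, 0.07 and 0.25 under vehicle and 1.497, 1.05 and 1.11 under Dex. All vehicle arrays were above all Dex arrays in S211A cells, and the order was turned in S211A+MDFIC cells. NM_013271 fell by 0.75 (log2, SE 0.15, limma adjusted p = 0.0136) with Dex in S211A cells and rose by 1.06 (SE 0.15, limma adjusted p = 0.00175) in S211A+MDFIC cells. The difference was 1.81 (SE 0.21, limma adjusted p = 0.0303), the highest among the 65. With slide as a fixed block it was 1.53 (SE 0.29) and no longer passed (limma adjusted p = 0.182).

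BC033110 followed the same course. In S211A cells its level was 1.79, 1.45 and 1.80 under vehicle and 1.16, 0.64 and 0.81 under Dex. In S211A+MDFIC cells it was 0.98, 0.66 and 1.20 under vehicle and 2.12, 1.64 and 1.76 under Dex. The vehicle and Dex arrays did not overlap in either cell background. The difference of 1.70 (SE 0.27, limma adjusted p = 0.0409) joined a fall of -0.81 in S211A cells and a rise of 0.89 in S211A+MDFIC cells (limma adjusted p = 0.0332 and 0.0172). With the slide block the difference was 1.16 and did not pass (limma adjusted p = 0.446).

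NM_025165, one of the 2 accessions with a difference below 0, was higher with MDFIC under both treatments. Its level was -1.69, -1.74 and -1.63 in S211A vehicle cells and -1.39, -1.39 and -1.34 in S211A Dex cells. With MDFIC it rose to 0.93, 0.70 and 0.87 under vehicle and 0.58, 0.31 and 0.39 under Dex. All 6 arrays with MDFIC were above all 6 without it. The MDFIC change was 2.52 (SE 0.08, limma adjusted p = 5.33e-07) under vehicle, or 5.75-fold, and 1.80 (SE 0.08, limma adjusted p = 5.43e-06) under Dex, or 3.48-fold. Dex raised this accession by 0.31 in S211A cells (limma adjusted p = 0.0484) and lowered it in S211A+MDFIC cells (log2 change -0.41, limma adjusted p = 0.0117). The difference between the Dex responses was -0.72 (SE 0.11, limma adjusted p = 0.0409), and -0.74 with the slide block, where it did not pass (limma adjusted p = 0.346).

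NR_026791 exceeded background clearly in S211A Dex cells alone, where its level on the 3 arrays was -5.59, -5.39 and -4.46. The other 9 arrays gave values from -7.38 to -6.02 that were not well above background. The mean of the S211A Dex arrays, -5.14 ± 0.60 (SD, n = 3), was at least 1.44-fold above S211A vehicle, where the measured mean was -7.26. For this bound each dim array was given the larger of its own value for the probe and the smallest signal it counted as well above background. It was at least 2.52-fold above S211A+MDFIC Dex by the same bound (measured mean -6.62). The accession passed the filter only through the S211A Dex arrays, where it was high, so the filter favours the p-values that follow. The fitted Dex change in S211A cells passed (limma adjusted p = 0.00134). In S211A+MDFIC cells the fitted change of -0.26 did not pass (limma adjusted p = 0.584). The fitted difference of -2.38 (SE 0.38, limma adjusted p = 0.0458) has no measured level in 3 of the 4 groups. With normexp background correction, which adds an offset to every signal, it was -0.13 and did not pass.

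**Figure D3:**
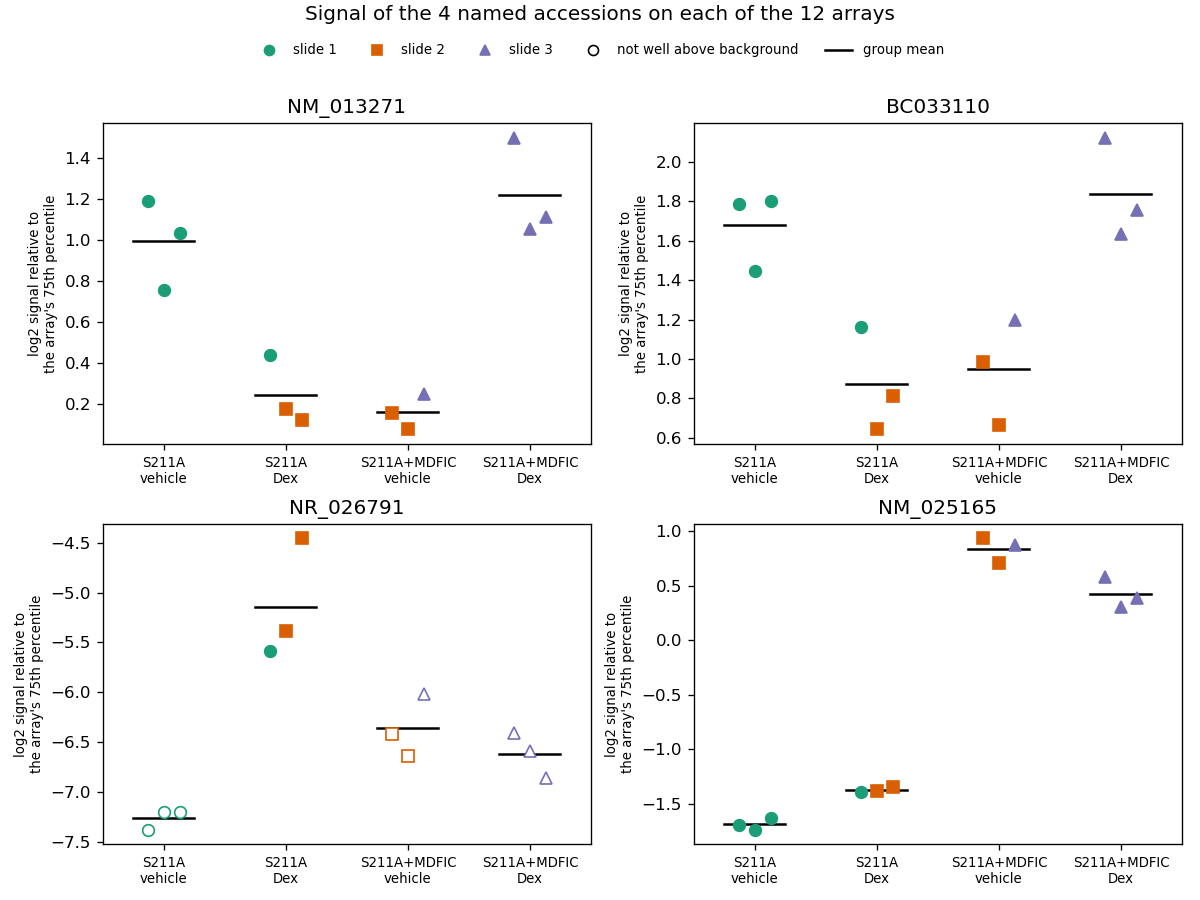
Each panel is a named accession, with log2 signal relative to the array's 75th percentile on the y axis and the 4 groups on the x axis. Points are single arrays, colour and shape mark the slide, open points were not well above background and lines are group means. NM_013271 and BC033110 are low in the middle groups, NM_025165 is high in both groups with MDFIC, and NR_026791 has filled points in S211A Dex cells only.

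Some accessions had further probes under the same identifier. Whether human probes with a shared identifier read the same monkey RNA was not tested. Of the 67 calls, 18 had another tested probe, 23 probes in all. The probe that stood for the accession showed a median difference of 0.85 in size, and the other probes a median of 0.01 in the direction of the call. The former were chosen by the call, which favours large sizes. They were also brighter, with a median level of 3.59 against -1.24 for the other probes. Of the 23, 12 pointed the same way, and 2 did so at an unadjusted limma p under 0.05. Of the 23, 20 were well above background on all 12 arrays, and their values in the direction of the call ran from -0.49 to 0.44, with a median of 0.00 and 10 pointing the same way. At NM_013271 the other probe gave 0.33 (SE 0.10, limma adjusted p = 0.402 over all probes), with a Dex change of -0.06 without MDFIC and 0.27 with it. At NM_025165 the other probe gave -0.04 (SE 0.08, limma adjusted p = 0.879 over all probes), an MDFIC change of 0.04 under vehicle, and a Dex change of 0.31 in S211A and 0.28 in S211A+MDFIC cells. The MDFIC change of NM_025165 was therefore read by a single probe of that accession, whereas both probes read a Dex rise in S211A cells. BC033110 and NR_026791 had 1 tested probe each.

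Across the 5285 accessions with several tested probes, the difference between the Dex responses correlated weakly between probes. The correlation between the brightest and the next probe was r = 0.09 (Spearman's rho 0.15) for the difference, against r = 0.55 (rho 0.52) for the Dex change averaged over both cell backgrounds and 0.11 (rho 0.22) for the averaged MDFIC change. Among the 4609 pairs measured on all 12 arrays, these values were 0.14, 0.64 and 0.12. The probes of a pair share the arrays, so errors of an array enter both, and an averaged change has a standard error that is smaller than that of the difference (median 0.07 against 0.14). All probes had the same sign for the difference at 2767 accessions (52.4%) and for the averaged Dex change at 3526 (66.7%). At 26 accessions (0.492%) every probe had the same sign and an unadjusted limma p under 0.05 for the difference, 18 above 0 and 8 below. For the averaged Dex change this held at 729 accessions (13.8%), and for MDFIC at 162 (3.07%). On their own, 9.84% of the accessions tested reached this p for the difference, 28.4% for averaged Dex and 18.2% for averaged MDFIC. Whether the 26 are more than unrelated probes would give was not tested. Over the 26, the smallest of the probes' differences had a median size of 0.27 and reached 1.21.

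**Figure D4:**
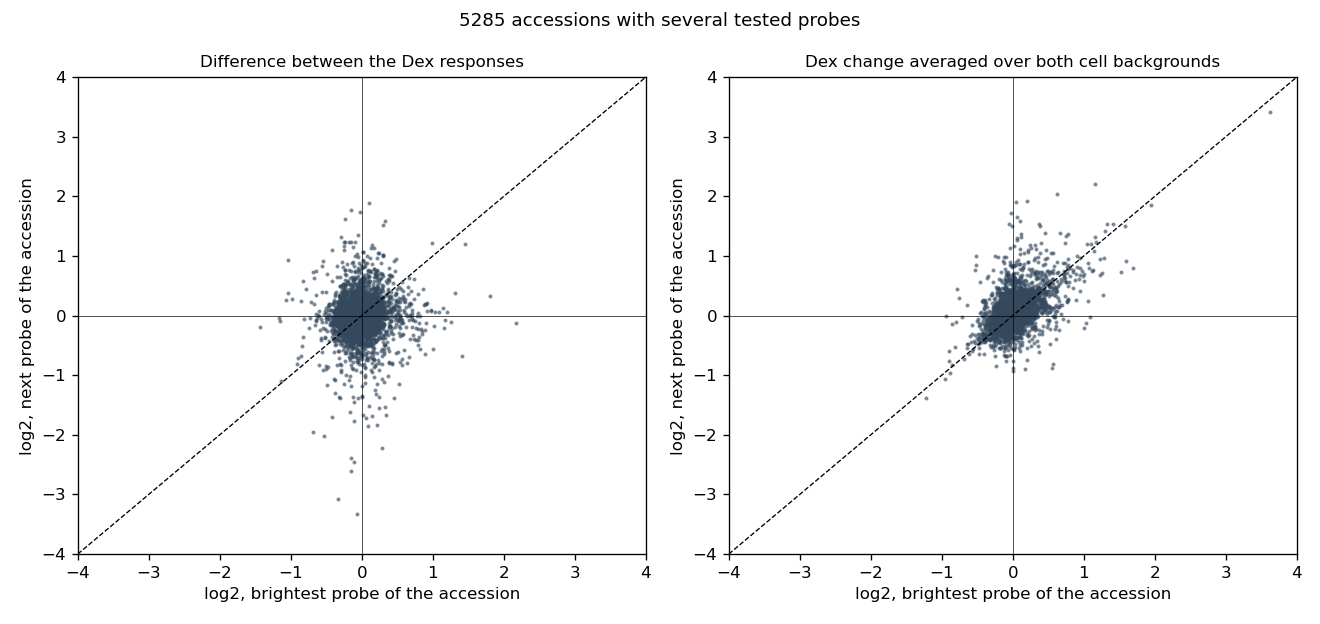
Each point is one of the 5285 accessions with several tested probes, with the log2 value at the brightest probe on the x axis and at the next probe on the y axis. The left panel shows the difference between the Dex responses, where the points form a cross around 0 (r = 0.09), and the right panel the averaged Dex change, where they lie along the dashed line of equality (r = 0.55).

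Accessions that respond to Dex were then examined for the difference. They were taken by the Dex change averaged over both cell backgrounds, whose estimation error is uncorrelated with that of the difference in this balanced design, so that the choice does not favour either background. They share the variance estimate with the test, which can raise the share at small p among them. The averaged change was called as a rise at 2095 accessions (8.52%) and as a fall at 1483 (6.03%). Among the rises 2 were called for the difference (0.095%), and among the falls 1 (0.067%), against 0.273% of all accessions. For the 196 rises of at least 2-fold the median Dex change was 1.30 without MDFIC and 1.26 with it. Their median difference was -0.06, with a median 95% half-width of 0.53, and 76 of the 196 (38.8%) rose more with MDFIC. limma called 0 of them, with 24 at an unadjusted p under 0.05, 12 in each direction. These 24 are 12.2% of the 196, against 9.84% over all accessions.

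The rises of at least 2-fold could be bounded best where they were bright. Of the 196, 102 were well above background on all 12 arrays, and there the median change was 1.23 without MDFIC and 1.22 with it, with a median difference of -0.03 and a half-width of 0.30. For 70 of these 102 the 95% interval of the difference lay within 1.5-fold in either direction, and for 95 within 2-fold. The differences among the 102 ran from -0.57 to 0.91. The 24 rises of at least 4-fold showed medians of 2.58 and 2.56, and a median difference of 0.02. The 9 of them measured on all 12 arrays had medians of 2.23 and 2.53, with a median difference of 0.06.

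The sign of the small median over the 196 depended on the processing. It was -0.06 without a slide term, -0.0035 with slide as a block and 0.11 with normexp, which moved the median of all accessions to 0.05. With the block, which leaves slide 1 for S211A and slide 3 for S211A+MDFIC cells, the median Dex changes were 1.23 and 1.29. The array medians of the 196 were between -0.74 and -0.67 on the S211A vehicle arrays and between -0.63 and -0.62 on the S211A+MDFIC vehicle arrays, relative to each accession's mean. They were 0.61 to 0.70 on the S211A Dex arrays and 0.64 to 0.70 on the S211A+MDFIC Dex arrays. The Dex arrays of both backgrounds thus overlapped, whereas the vehicle arrays did not. The S211A vehicle arrays were all on slide 1 and those of S211A+MDFIC on slides 2 and 3. Slide and cell background therefore cannot be told apart for the vehicle arrays.

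Falls under Dex were mostly small. The 1483 accessions called as falls had a median change of -0.22 without MDFIC and -0.28 with it, and 997 of them (67.2%) fell further with MDFIC. Their median difference was -0.07 and their median half-width 0.22. At an unadjusted limma p under 0.05 there were 204 of the 1483 (13.8%, against 9.84% of all accessions), 150 with the larger fall in S211A+MDFIC cells and 54 with the smaller. With slide as a block the median difference was -0.07 as well, but 86 (5.80%) reached this p, against 7.22% of all accessions. At the 84 falls of at least 1.5-fold the medians were -0.77 and -0.81, with a median difference of 0.01 and 41 of 84 larger with MDFIC.

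**Figure D5:**
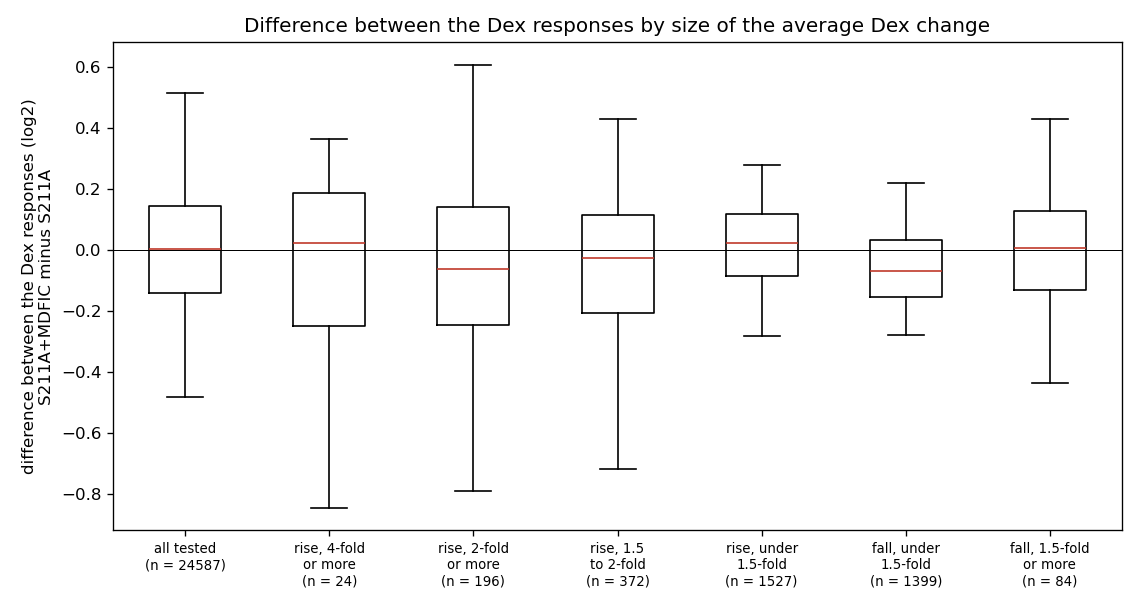
The y axis gives the log2 difference between the Dex responses and the x axis accessions grouped by the called, averaged Dex change, beside all accessions tested. Red lines are medians, boxes span the 25th to the 75th percentile and whiskers the 5th to the 95th; the 24 rises of at least 4-fold are also among the 196 of at least 2-fold. All medians lie between -0.07 and 0.02.

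Read from the side of MDFIC, the same quantity is the MDFIC change under Dex minus that under vehicle. The MDFIC change averaged over both treatments was called higher at 153 accessions (0.622%) and lower at 249 (1.01%). At the 153 the median MDFIC change was 0.49 under vehicle and 0.44 under Dex, and 35 of them (22.9%) had the larger change under Dex. At the 249 the medians were -0.32 and -0.26, and 78 (31.3%) had the larger change under Dex. An unadjusted limma p under 0.05 was reached by 35 of the 153 (22.9%), 34 with the smaller change under Dex, and by 48 of the 249 (19.3%), 40 with the smaller change under Dex, against 9.84% of all accessions. With slide as a block it was reached by 10 of the 153 (6.54%) and 22 of the 249 (8.84%), against 7.22% of all accessions. Both lists share the variance estimate with the test, which can raise the share at small p among them. In each list 1 accession was called for the difference (0.654% and 0.402%, against 0.273% of all). At the accession with the largest MDFIC difference the change was 8.70 in vehicle cells and 8.82 in Dex cells, with a difference of 0.11 (95% half-width 0.57, limma adjusted p = 0.891). With slide as a block the median difference over the 153 was -0.08 in place of -0.13, and over the 249 it was 0.06 in place of 0.07.

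Slide as a fixed block replaced the calls almost wholly. In this layout the block reduces the difference to the S211A+MDFIC Dex arrays against 1 vehicle array on slide 3, minus 1 S211A Dex array against the vehicle arrays on slide 1. It called 40 accessions (0.163%), 36 above 0 and 4 below, of which 1 was among the 67. All 67 kept their direction and had an unadjusted limma p under 0.05 with the block, as did 7.22% of all accessions for the p, and their median difference was 0.73 with it and 0.85 without it, a nearness that the choice of the 67 favours. The 36 had a different shape from the 65. S211A Dex replicate 1 was the lowest of its group at all 36, with a median of -1.54 relative to the accession's mean, while the medians on the other 11 arrays were 0.09 to 0.27. The block leaves that array as the only S211A Dex array in the contrast, so the 36 rest on it, and 6 of the 40 had an unadjusted limma p under 0.05 without the block.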

How the data were processed

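The deposited values are intensity readings of 45015 spots per array, which per the file headers the authors read with Agilent's Feature Extraction, version 12.0.0.7. Per the file headers other columns hold 0 or 1 flags, and the authors' series-wide table equals the processed intensity. The 1639 control spots were left out and 945 spots with outlier marks were dropped as missing values. Saturation did not occur on any spot (0). log2 values had each array's 75th percentile over the 41000 probes subtracted, and spots of a probe were averaged. A probe was tested (31232 in all) if every array of some group found it well above background and each group had at least 2 values. The brightest probe stood for its accession.

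limma 3.58.1 in R 4.3.3 fitted 4 group means over 12 arrays, two-sided, with Benjamini-Hochberg adjustment, and no term for slide. The fit was tested on simulated data with independent errors and no slide term. That test does not bear on errors that the accessions of an array or slide share. Figures used matplotlib 3.10.9. The groups, lists and rules were chosen with earlier results of these data known, and the sets by averaged Dex and MDFIC change were added after these data were seen. Named are the 2 largest calls in each direction, leaving out identifiers that repeat the probe's own. Gene and marker lists were not used here, since they need gene names.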

Additional observations from a re-analysis of the deposited data

Results flagged for a closer look

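The difference between the Dex responses is itself a tested difference of effects between the cell backgrounds, so every call is flagged. The calls are given as a count, and only the named accessions are listed. At 67 accessions the response to Dex differed between S211A and S211A+MDFIC cells in limma, 65 with a difference above 0. Above 0 were NM_013271, with 1.81, and BC033110, with 1.70. Below 0 were NM_025165, with -0.72, and NR_026791, with a fitted value of -2.38. NR_026791 was well above background in S211A Dex cells alone and passed the filter only through them. Its fitted value is thus set against unmeasured levels, and it was -0.13 with normexp. Slide, place on the slide and single arrays move these calls, and their part in them was not tested beyond the fits given. Dixon's test for an outlying sample was not applied to groups of 3.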

How the results depend on the processing

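The 67 calls became 121 with normexp background correction (62 of the 67 kept), 143 with only probes well above background on all 12 arrays, 185 with trend and robust variance moderation, 346 with array weights (279 above 0, 67 below), 151 with slide as a random block, 40 with slide as a fixed block and 36 with the mean of an accession's probes. In the random-block fit the correlation of arrays on a slide was -0.07, and what this value does to the count was not tested. The count was 55 with quantile normalization, 65 with median centring and 66 with outlier spots kept. Every probe on its own gave 61, and a fold minimum of 1.5 gave 65. limma called 0 from the unscaled table, 0 when dim probes were kept and 0 with place on the slide as a block. At an unadjusted p under 0.05 these gave 943, 3145 and 2343. Leaving out single arrays gave 0 to 256. Of S211A vehicle, leaving out replicate 1, 2 or 3 gave 1, 126 or 2. Of S211A Dex it gave 0 (2506 at an unadjusted p under 0.05), 4 or 0 (2097). Of S211A+MDFIC vehicle it gave 0 (1808), 2 or 96, and of S211A+MDFIC Dex 0 (1915), 256 or 4. The cause was not tested. The median difference over the 196 Dex rises of at least 2-fold was -0.06, but 0.11 with normexp and -0.0035 with the slide block, as settings added after the data were seen.

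A block for the replicate number gave 58 calls, 49 of which were among the 67. Same-numbered arrays deviated from their group means with correlations of -0.26 to 0.25, above 0.1 in 4 of 18 pairs. Whether they share more than a number was not tested.

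No named difference changed sign in the alternatives read for these accessions. The fits on the mean of an accession's probes and on every probe alone were not among them. The other probe gave 0.33 at NM_013271 and -0.04 at NM_025165. NM_013271 ran from 1.53 to 1.95 and passed in 12 of 25 alternatives, BC033110 from 1.16 to 1.84 (12 of 25), NM_025165 from -0.80 to -0.65 (9 of 25) and NR_026791 from -2.70 to -0.13 (5 of 24). The median 95% half-width was 0.21 in the brightest of 4 parts of the accessions and 0.87 in the dimmest.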

Other observations

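Detection was also read probe by probe, as a pattern apart from the fit. Probes well above background on all 3 arrays of a group and on none of the other 9 numbered 0 for vehicle and 1 for Dex without MDFIC, and 3 for vehicle and 21 for Dex with it. In the opposite pattern, 167 probes were missed on all 3 S211A vehicle arrays and found on all 9 others, and 0 probes were so missed in any other group. All 3 arrays of S211A vehicle lie on slide 1, which had the lowest share of spots well above background. In both Dex groups and neither vehicle group 23 probes were detected. Detection in S211A vehicle and S211A+MDFIC Dex cells alone was met by 0 probes, and its mirror image by 1. The 65 accessions were well above background on every array, so these counts do not bear on them.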
